A study of Capra hircus with 13 samples.

Results

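The mRNAs described here are those present in goat MII oocytes that were low in every untreated 4-cell and 8-cell stage embryo library. A name was a member if it was listed once in the tables of all 3 stages, measured at least 5 FPKM (mapped fragments scaled to exon length and library depth) in every MII library, and lay at or below 1/3 of its lowest MII value in all 6 embryo libraries. Zinc finger (ZNF), solute carrier (SLC), ribosomal (RPL, RPS, MRP), complex I (NDUF) and LSM names and *SQSTM1* were left out by name, which removed 3 names that met the values (*NDUFA6*, *NDUFC1* and *RPS9*). There were 46 members among 18159 names listed once at all 3 stages, which is 1.11% of the 4129 names at 5 FPKM or more in every MII library once those names were left out. The members were thus selected on the MII, 4-cell and 8-cell values, so their decline between these stages is a description and was not tested.

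The untreated libraries were 3 of mature MII oocytes, 3 of 4-cell and 3 of 8-cell embryos. A further 4 libraries were of 8-cell embryos of the knockdown experiment, each made from 15 pooled embryos. Of these, 2 were of embryos injected into the cytoplasm with 20 µM siRNA against *YTHDF2* at 8 h after in vitro fertilization (knockdown). The other 2 were controls, and the paper's control for the knockdown was a universal negative control siRNA (NC). The labels of the NC libraries read WT and name no injection, so their injection is taken from the paper's methods. All 4 are called injected below. Embryos for sequencing were collected at 72 h after fertilization, and no allele, breed or age of the animals is labelled. The untreated data were taken from earlier work of the same group, the source of each library was not given, and the injected libraries were prepared for the knockdown study. The paper describes libraries made from whole lysed embryos by Smart-seq2. It does not say how the untreated libraries of the earlier work were made. Nothing states that replicates came from separate fertilizations, so p-values measure only the spread between these libraries. In pooled whole embryos, fewer embryos that carry an mRNA and less of it per embryo cannot be told apart.

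A mature oocyte makes almost no new RNA, and the first divisions run on mRNAs stored during its growth. These are removed in waves, some by factors already in the oocyte and others only after the embryonic genome has become active, which in ruminants happens around the 8-cell stage. YTHDF2 binds mRNAs that carry the m6A mark and recruits a deadenylase complex to them, which leads to their decay. The siRNAs injected against *YTHDF2* are shown because every knockdown value below rests on them. The guide strands are written from 5′ to 3′, with the seed, bases 2 to 8, in capitals.

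s28148: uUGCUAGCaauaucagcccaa
s28147: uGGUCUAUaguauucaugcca

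Replicate libraries correlated over genes by 0.850 to 0.975 (Pearson, log2 values), and the 8-cell with the NC libraries by 0.463 to 0.625. *YTHDF2* measured 112 and 159 FPKM in the NC libraries and 8.07 and 4.47 FPKM in the knockdown libraries, so the labels of the injected libraries hold for the targeted gene. Of 14 oocyte markers measured, 14 were above 1 FPKM in the MII libraries, and their summed level was 7860 to 8846 FPKM there, 11747 to 13095 at the 4-cell stage, 9699 to 11322 at the 8-cell stage, 3511 to 5318 in NC and 6959 to 8333 in the knockdown. Of 28 cumulus or granulosa cell markers, 8 were above 1 FPKM in the MII libraries (summed 134 to 162 FPKM), with *FSHR* at 0, 0 and 0.25 FPKM, *CYP19A1* at 0.33, 0.53 and 0.29 FPKM, *STAR* at 29.5, 34.0 and 29.1 FPKM and *HAS2* at 9.79, 9.99 and 8.15 FPKM. None of the oocyte, cumulus, sperm, blood or genome activation markers was a member.

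Of the 46 members, 17 carry a gene symbol, 4 of these only an open reading frame name, and 29 are named by a LOC number. A RefSeq table of a later release of the goat assembly (ARS1.2) listed all 46, with 29 as protein coding, 15 as transcribed pseudogenes and 2 as pseudogenes. Pseudogenes were thus 17 of the members, 37.0%, beside 59 of the 4129 oocyte names (1.43%). Among names with a mean MII level of 5 to 50 FPKM the shares were 42.9% and 1.44%. Pseudogenes resemble their parent genes, and by the stated methods only reads with 1 place in the genome were counted, so the levels of these members are uncertain. The same holds for *TUBA1C*, which has near-identical relatives among the alpha-tubulins. Smart-seq2 does not mark strand, and the paper gives no method for the untreated libraries, so antisense RNA cannot be told apart either.

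**Figure D1:**
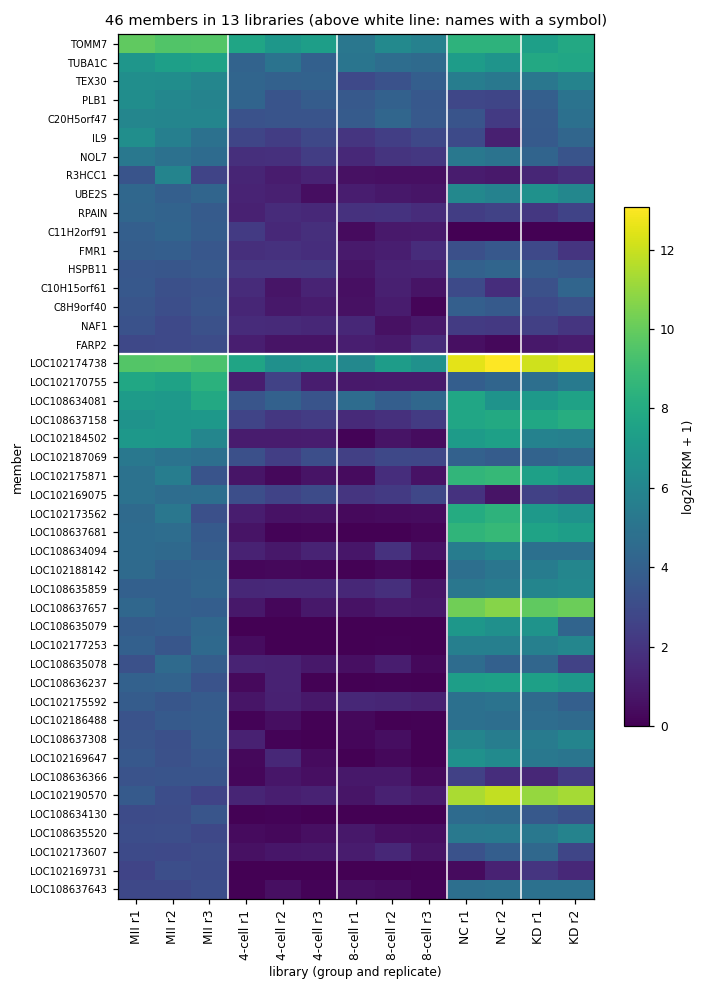
Level of each member (rows) in each of the 13 libraries (columns), as log2(FPKM + 1), with members that have a symbol above the white horizontal line and LOC names below it, each ordered by MII mean. All 46 rows are darker in the 6 untreated embryo libraries than in the MII libraries, as the rule requires, and many LOC rows are bright again in the NC and knockdown (KD) libraries.

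The mean MII level of the members ran from 6.53 to 805 FPKM, with a median of 16.2. Together they took 1.05 to 1.17% of the summed FPKM of an MII library, 0.0871 to 0.122% of a 4-cell library and 0.0582 to 0.0841% of an 8-cell library. The median member stood at 7.70% of its MII mean at the 4-cell stage and at 6.51% at the 8-cell stage. For members with a symbol these medians were 14.8% and 10.9%, and for LOC names 4.08% and 3.80%. The rule itself requires most of the difference from the oocyte to be present by the 4-cell stage. Between the embryo stages, 11 members had every 8-cell library below every 4-cell library, 2 (*C20H5orf47* and *RPAIN*) had every 8-cell library above, and in the other 33 the stages overlapped. The MII and embryo tables are separate, but 1 step per gene, scaled by the relative depth of each library, gave whole fragments in both.

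*TOMM7*, a small subunit of the complex that imports proteins through the outer mitochondrial membrane, had the highest MII level. It measured 933, 727 and 756 FPKM in the MII libraries, 207, 118 and 162 FPKM at the 4-cell stage and 34.8, 68.9 and 52.0 FPKM at the 8-cell stage. Every 8-cell library lay below every 4-cell library. *TUBA1C*, an alpha-tubulin of the spindle and cytoskeleton, measured 114, 164 and 187 FPKM in MII oocytes, 16.9, 30.3 and 15.2 FPKM in 4-cell embryos and 33.0, 24.6 and 21.9 FPKM in 8-cell embryos. Its embryo stages overlapped. *TEX30* went from 85.8, 84.5 and 62.7 FPKM in the MII libraries to 18.3, 15.9 and 16.0 FPKM and then to 6.33, 8.86 and 14.1 FPKM, each stage below the one before.

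Secreted and membrane proteins were represented by *IL9*, a cytokine otherwise known from T cells and mast cells, and *PLB1*, a membrane-bound phospholipase. *IL9* measured 85.5, 48.3 and 28.5 FPKM in the MII libraries, a wide spread, against 5.64, 4.10 and 6.23 FPKM at the 4-cell stage and 3.06, 4.46 and 6.17 FPKM at the 8-cell stage. *PLB1* measured 85.0, 66.1 and 56.5 FPKM, then 17.8, 9.67 and 12.9 FPKM, then 11.6, 15.5 and 11.0 FPKM. Both were at their embryo level by 4 cells. *C20H5orf47*, of unknown function, was the most even in the oocyte, at 62.2, 61.7 and 61.1 FPKM, and measured 8.76, 9.43 and 9.69 FPKM at the 4-cell stage and 12.4, 18.6 and 11.7 FPKM at the 8-cell stage.

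Members that act on RNA or in the nucleolus were *NOL7*, *FMR1* and *NAF1*. *NOL7*, a nucleolar protein, measured 36.7, 28.8 and 22.8 FPKM in MII oocytes, 2.41, 2.50 and 4.17 FPKM in 4-cell and 1.85, 2.95 and 3.38 FPKM in 8-cell embryos. *FMR1* encodes FMRP, which binds mRNAs and represses their translation, and it measured 13.7, 13.9 and 10.9 FPKM, then 2.43, 2.70 and 2.25 FPKM, then 0.91, 1.12 and 2.16 FPKM. The 3 stages of *FMR1* did not overlap. *NAF1*, an assembly factor of the H/ACA particles that guide RNA pseudouridylation, measured 8.88, 6.36 and 8.39 FPKM in the oocyte and at most 1.99 FPKM in an embryo library.

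Single members were *UBE2S*, the ubiquitin-conjugating enzyme that lengthens chains for the anaphase-promoting complex, and *RPAIN*, which binds replication protein A. *UBE2S* measured 19.8, 14.5 and 18.2 FPKM in the MII libraries and 0.39 to 1.49 FPKM in the 6 embryo libraries. It had the lowest ratio of highest embryo to lowest MII value among members with a symbol, 0.102. *RPAIN* measured 19.2, 17.0 and 12.5 FPKM, then 1.32, 2.07 and 1.83 FPKM, then 2.58, 2.74 and 2.19 FPKM.

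The other members with a symbol had varied or unknown roles. *HSPB11*, an intraflagellar transport protein, measured 10.4 to 11.5 FPKM in MII oocytes, 3.13 to 3.36 FPKM at the 4-cell and 0.70 to 1.46 FPKM at the 8-cell stage. *FARP2*, an exchange factor for small GTPases, measured 6.16 to 7.21 FPKM and then 0.60 to 2.00 FPKM over both embryo stages. *C11H2orf91* (13.0 to 17.4 FPKM), *C10H15orf61* (8.23 to 11.0 FPKM) and *C8H9orf40* (7.70 to 10.0 FPKM), with no function known, stood at most at 3.60, 2.06 and 1.68 FPKM in the embryos. The oocyte mean of *R3HCC1* was set by 1 library, with 9.35, 57.7 and 5.42 FPKM in MII against 0.45 to 1.53 FPKM in the embryos. The members with a symbol nearest the threshold were *FARP2* (ratio 0.325), *HSPB11* (0.325) and *PLB1* (0.314), and names close to it on the outside included *MED10* (0.336) and *VKORC1* (0.366).

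The lowest shares of the MII level were those of LOC members, which are singled out here after their values were seen. The pseudogene LOC102170755 measured 217, 183 and 321 FPKM in the MII libraries and 0.84 to 4.93 FPKM in the embryos. LOC102184502, also a pseudogene, went from 123, 121 and 63.5 FPKM to 0.081 to 1.07 FPKM. LOC108635079 was listed at 0 in all 6 embryo libraries after 12.9, 14.1 and 19.7 FPKM in the oocyte. Of the 46 members, 9 were at 0 in at least 1 embryo library.

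The oocyte values rested on many fragments. The steps of the FPKM values gave whole fragments (within 0.02 of a whole number) for 95.1% of 16704 genes, and for all 46 members. A member had at least 101 fragments in each MII library (median 640) and from 0 to 5461 in an embryo library (median 32.5). For 6 members, all LOC names, no embryo library reached 10 fragments, so their residual level cannot be ranked. The relative depth of the untreated libraries ran from 0.785 to 1.24 times that of the first MII library. The depth of the injected libraries is not known, since their values did not step by whole fragments of the same genes. A score of this fit, higher where values fall on whole steps, was 0.15 to 0.30 in them. In the first 4-cell and first 8-cell libraries, rounded to the same 2 decimals, it was 0.97 and 0.98. The reason was not tested.

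Since members were 1.11% of the oocyte names, lists of this size would hold few by that share alone, and the counts are a description. Of 17 lists of gene functions, 4 held a member, 1 each: mRNA storage and translational control (*FMR1*, of 26 names at 5 FPKM or more in MII), ubiquitin enzymes (*UBE2S*, of 119), cytoskeleton and motors (*TUBA1C*, of 70) and mitochondrial function (*TOMM7*, of 26). None of 8 zona and oocyte-secreted genes, 8 subcortical maternal complex genes, 41 meiosis and cell cycle genes, 30 mRNA decay genes, 16 transcription factors, 35 chromatin genes, 46 DNA repair and replication genes, 91 membrane traffic genes, 49 pre-mRNA processing genes or 35 translation factors was a member. The same held for 9 TGF-beta and BMP signalling genes, 11 receptors and growth factors and 19 apoptosis and stress genes. In most lists the larger part stayed above the threshold through both embryo stages, as 39 of the 41 meiosis genes and 27 of the 30 decay genes did. Over all oocyte names, 3681 of 4129 were kept to the 8-cell stage, 22 were kept to 4 cells and low in every 8-cell library, and 380 were mixed.

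Whether the members were also low in embryos that the rule had not used was asked of the NC libraries, which are 8-cell embryos too. Of the 46 members, 9 had both NC libraries at or below 1/3 of the lowest MII value, which is 19.6% (exact 95% binomial interval 9.36 to 33.9%, which treats members as independent and so covers counting error only), beside 11.3% of the 4121 oocyte names listed in the injected tables. The share of members was 10.0% at a threshold of 1/4 and 29.8% when every library was scaled to the same summed FPKM. The 9 were *IL9*, *PLB1*, *C20H5orf47*, *R3HCC1*, *FARP2*, *C11H2orf91* and 3 LOC names. The other 37 were not low, and 25 of them had both NC libraries above every MII library, 54.3% of the members beside 28.6% of the oocyte names. A low level in all untreated 8-cell and both NC libraries was therefore shared by 9 members. In 40 of the 46 members, 87.0%, both NC libraries lay above every untreated 8-cell library, beside 23.5% of the oocyte names. The rule chose members for low values in these 8-cell libraries, which favours this order. Of the 22 names kept to 4 cells, which were also chosen for low 8-cell values, 68.2% had it. NC and untreated 8-cell embryos differed in the study they came from and in the processing of their tables. By the paper's methods they also differed in injection, though the NC labels read WT. These differences cannot be told apart here, and no p is given across them. The tables list 18858 (MII), 21826 (untreated embryos) and 27121 (injected) names once. The injected values also did not step by the whole fragments found in the untreated libraries, as given above. Why they did not, and whether reads were counted alike, was not tested. This bears most on the pseudogene members. Genome activation markers summed to 571 to 1722 FPKM in the untreated 8-cell and 4497 to 5054 FPKM in the NC libraries, and *YTHDF2* measured 10.8 to 16.7 FPKM in the former, against the 112 and 159 FPKM in NC. Their part in the higher NC levels of the members was not tested.

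**Figure D2:**
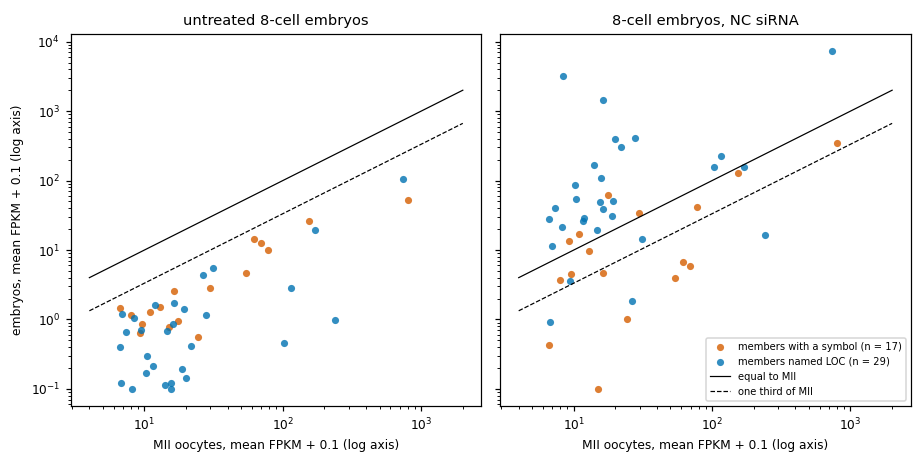
Mean FPKM + 0.1 of each member in MII oocytes (x axis, log scale) against untreated 8-cell embryos (left, y axis, log scale) and NC siRNA embryos (right, same scale), with a solid line at equal levels and a dashed line at 1/3 of MII. All 46 points lie below the dashed line on the left, by the rule, and on the right 25 members had both NC libraries above every MII library, 22 of them LOC names.

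The values are given for members with a symbol and LOC names side by side, and the difference between them was not tested. The median NC level was 46.0% of the MII mean for the 17 members with a symbol and 267% for the 29 LOC names. Of the former, 6 were low in NC and 3 were above every MII library. Of the LOC names, 3 were low and 22 were above, among them 14 of the 17 pseudogenes. Over all LOC names of the oocyte, 11.4% were low and 37.3% above, and over all pseudogene names 45.8% were above. LOC102174738, listed as protein coding, measured 760, 796 and 659 FPKM in MII, 67.2 to 195 FPKM in the untreated embryos and 5936 and 8576 FPKM in NC, the highest injected level of any member. LOC102190570 had 12.2, 7.53 and 5.13 FPKM in MII, 0.65 to 1.59 FPKM in the untreated embryos and 2720 and 3734 FPKM in NC. LOC108637657 had 19.3, 15.2 and 13.9 FPKM in MII, 0.16 to 0.95 FPKM in the untreated embryos and 1224 and 1627 FPKM in NC. The last 2 are transcribed pseudogenes, and in both the knockdown libraries were also far above the untreated embryos, at 2056 and 2511 FPKM and at 932 and 1126 FPKM.

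**Figure D3:**
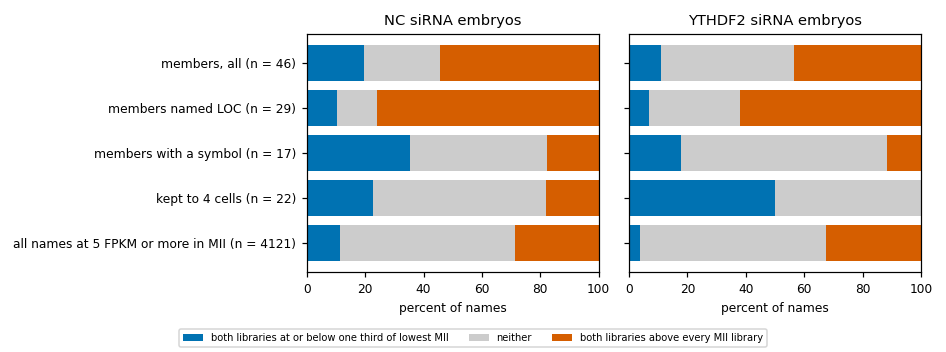
Percent of names (x axis) whose 2 NC libraries (left) or 2 knockdown libraries (right) lie at or below 1/3 of the lowest MII value (blue), above every MII library (orange) or in neither range (grey), for all oocyte names, names kept to 4 cells, and the members. In NC, 75.9% of the LOC members are orange, beside 17.6% of members with a symbol and 28.6% of all oocyte names.

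Among the members with a symbol, *UBE2S* stood apart. It measured 68.7 and 54.8 FPKM in NC, above the 3 oocyte libraries, where the untreated 8-cell libraries had 1.05, 0.79 and 0.67 FPKM. *HSPB11* (15.5 and 18.5 FPKM in NC) and *C8H9orf40* (14.7 and 12.0 FPKM) were also above the oocyte. *NOL7* measured 37.1 and 30.8 FPKM, *TUBA1C* 150 and 108 FPKM and *FMR1* 8.01 and 11.1 FPKM in NC, and each had 1 NC library within its oocyte range. *TOMM7*, at 345 and 348 FPKM, and *TEX30*, at 45.2 and 37.0 FPKM, lay below every oocyte library and above every untreated 8-cell library. *C11H2orf91* was listed at 0 in all 4 injected libraries.

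The knockdown was compared with NC within the injected libraries, by limma on log2(FPKM + 1) over 11004 genes, those whose mean reached 1 FPKM. This fit is independent of the rule. It tested 44 members, and *C11H2orf91* and *FARP2* were below the filter. Where the unadjusted p was below 0.05 and the change exceeded 2-fold, 5 members rose, 11.4%, beside 9.48% of all genes tested, and 7 fell, 15.9%, beside 15.3%. When the p was adjusted over all genes (Benjamini-Hochberg), 2 rose and 3 fell (2.06% and 5.92% of all genes), and none did with median-ratio rescaling or without replicate 2 of either group. Quantile normalization, and leaving the 10 highest genes out of the library total, each turned the balance by the unadjusted rule to 7 rises and 6 falls. All genes shifted the same way, from 1043 rises and 1685 falls to 1218 and 1379 with quantile normalization and to 1469 and 1365 with the 10 highest left out. Both knockdown libraries lay above both NC libraries in 14 of the 46 members, 30.4%, and below them in 17, 37.0%, beside 30.3% and 30.7% of all genes tested. The median member had a log2 fold change of -0.080, with 20 of 44 above 0, and the median of all genes was 0.005. These shares are near those of all genes tested. Beside the oocyte names, of which 15.7% rose, 6.30% fell, 44.3% had both knockdown libraries above and 19.7% below both NC libraries, with a median of 0.36, the members had fewer rises and more falls. The difference was not tested, and nothing particular to the members is read from it.

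**Figure D4:**
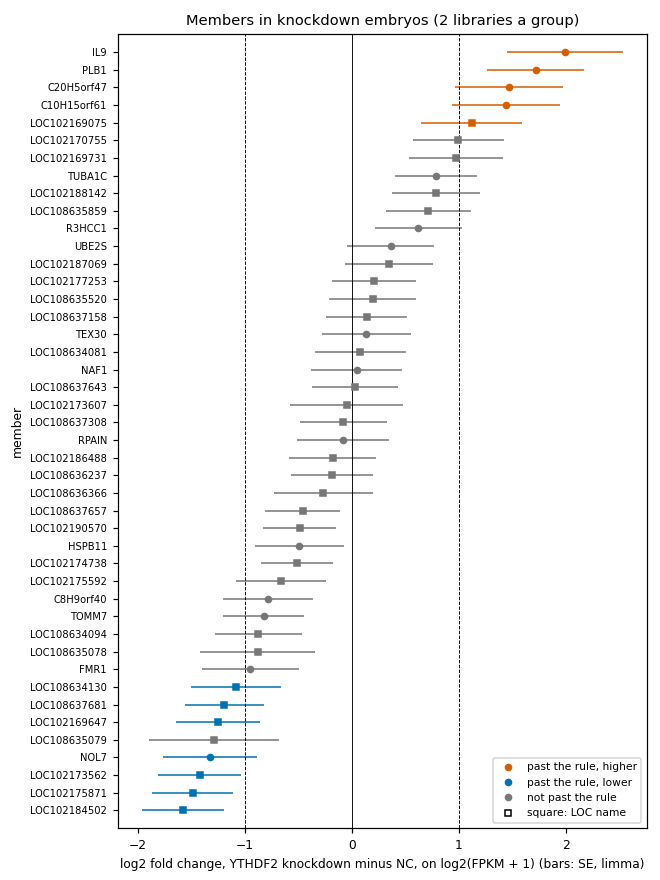
Log2 fold change of the 44 tested members, knockdown minus NC, on log2(FPKM + 1) (x axis), with the limma SE as bars, circles for symbols and squares for LOC names. Orange and blue mark the 5 members that rose and the 7 that fell by the rule of unadjusted p and fold, and dashed lines mark 2-fold.

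*IL9* rose most, from 6.58 and 1.19 FPKM in NC to 12.2 and 18.8 FPKM in the knockdown, with no overlap (log2 fold change 1.99, SE 0.54, limma adjusted p = 0.039). *PLB1* rose from 5.83 and 5.57 FPKM to 14.5 and 30.4 FPKM (1.72, SE 0.45, adjusted p = 0.035 by limma). Both stayed below every MII library. *C20H5orf47* measured 9.58 and 3.63 FPKM in NC and 12.4 and 27.1 FPKM in the knockdown (1.47, SE 0.51, limma adjusted p = 0.082). *C10H15orf61* measured 6.52 and 2.31 FPKM and then 8.54 and 18.2 FPKM (1.44, SE 0.51, limma adjusted p = 0.085), and 1 knockdown library was above its oocyte range. The fifth was the pseudogene LOC102169075, at 2.82 and 0.63 FPKM in NC and 4.78 and 4.09 FPKM in the knockdown (1.12, limma adjusted p = 0.13). Without NC replicate 2, the lower NC library in all of them, *PLB1* was the only one of these 5 still past the unadjusted rule. Without knockdown replicate 2 *C20H5orf47* (0.93) and *C10H15orf61* (0.94) were not past it.

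Of the 7 that fell, *NOL7* has a symbol. It measured 37.1 and 30.8 FPKM in NC and 17.6 and 9.36 FPKM in the knockdown (log2 fold change -1.33, SE 0.44, limma adjusted p = 0.072). The others were LOC names, at log2 fold changes of -1.58 to -1.08. LOC102184502 went from 145 and 172 FPKM to 53.6 and 50.7 FPKM (-1.58, limma adjusted p = 0.027), LOC102175871 from 389 and 434 FPKM to 173 and 123 FPKM (-1.49, limma adjusted p = 0.031) and LOC102173562 from 262 and 351 FPKM to 127 and 99.2 FPKM (-1.42, limma adjusted p = 0.038). In these 3 the knockdown and NC libraries did not overlap, and all were far above the untreated 8-cell libraries, whose highest value was 2.31 FPKM. *NOL7* was not past the unadjusted rule without NC replicate 1 (-1.20) or knockdown replicate 2 (-0.91). Without NC replicate 1 the members that fell were 4, and without knockdown replicate 1 they were 10.

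The other members with a symbol did not pass the rule. *TUBA1C* measured 232 and 210 FPKM in the knockdown against 150 and 108 FPKM in NC (log2 fold change 0.79, SE 0.38, limma adjusted p = 0.18), and *UBE2S* 95.3 and 65.7 FPKM against 68.7 and 54.8 FPKM (0.36, SE 0.40, limma adjusted p = 0.57). *TOMM7* measured 163 and 234 FPKM against 345 and 348 FPKM (-0.82, SE 0.38, limma adjusted p = 0.16), and *FMR1* 6.28 and 3.01 FPKM against 8.01 and 11.1 FPKM (-0.95, SE 0.45, limma adjusted p = 0.18). In the first pair of genes the change was up and in the second down, and *UBE2S* alone of the 4 had overlapping groups. *C8H9orf40* (-0.79), *HSPB11* (-0.49), *R3HCC1* (0.62), *TEX30* (0.13), *RPAIN* (-0.08) and *NAF1* (0.05) did not pass it either, and the last 3 changed sign without 1 of the libraries.

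**Figure D5:**
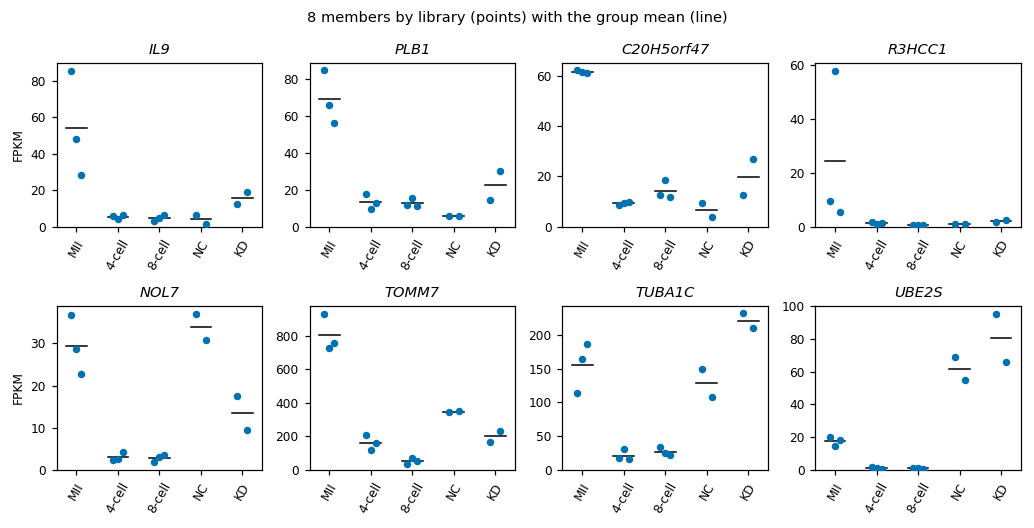
FPKM (y axis, from 0, its own scale per gene) of 8 members in each library (points) by group, with the group mean as a line. *IL9*, *PLB1*, *C20H5orf47* and *R3HCC1* (top) are low in untreated embryos and in NC, and their 2 knockdown (KD) points lie above the NC points, though *R3HCC1* did not pass the rule, while *NOL7*, *TOMM7*, *TUBA1C* and *UBE2S* (bottom) are higher in NC than in the untreated 8-cell embryos.

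The 9 members that were low in NC were read apart, as the only ones for which both kinds of control embryo were low. Of these, 7 were tested, 4 rose, none fell (limma, with 6 of the 7 at an unadjusted p under 0.05), and all 7 were above 0, with a median of 1.12. Both knockdown libraries were above both NC libraries in 8 of the 9 (the ninth, *C11H2orf91*, was at 0 throughout). NC enters both the choice of these 9 and the contrast, which favours a rise, so no test is given and the same choice was made among all oocyte names. Of 464 names low in NC, 452 were tested, 173 rose (38.3%), 1 fell, and both knockdown libraries were above both NC libraries in 77.2%, with a median log2 fold change of 0.89. The difference between the members and these names was not tested. The 37 members not low in NC had 1 rise (2.70%) and 7 falls (18.9%), with a median of -0.27. Of the 3656 tested oocyte names not low in NC, 12.9% rose and 7.06% fell, with a median of 0.28, and this choice in turn favours falls.

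In the knockdown, 5 members had both libraries at or below 1/3 of the lowest MII value, 10.9% beside 3.74% of the oocyte names. The share of members was 21.7% without knockdown replicate 2 and 25.5% when every library was scaled to the same summed FPKM. Of the 9 members low in NC, 4 were also low in the knockdown (*C11H2orf91*, *FARP2*, LOC102169075 and LOC102170755), and *IL9*, *PLB1*, *C20H5orf47*, *R3HCC1* and LOC102169731 were not. That is 55.6% of the 9, beside 75.2% of the 464 oocyte names low in NC. *TOMM7* was low in the knockdown only. Over all genes the MII libraries correlated with the knockdown libraries by 0.647 to 0.758 and with the NC libraries by 0.512 to 0.611, and the summed oocyte markers were higher in the knockdown than in NC, as given above. Their part in the rise of *IL9* and *PLB1* was not tested.

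The 22 names kept to 4 cells and low at 8 cells had none that rose and 5 that fell (limma, with 9 at an unadjusted p under 0.05), with a median log2 fold change of -0.86. With a pseudocount of 5 those that fell were 2, and without NC replicate 2 they were 3. The 3665 tested names kept to 8 cells had 563 rises (15.4%) and 211 falls (5.76%), with a median of 0.38, and 809 rises and 143 falls when the 10 highest genes were left out of the library total. Without NC replicate 2 the rises were 252, and without knockdown replicate 2 they were 338. Members with a symbol had 4 rises and 1 fall among 15 tested, and LOC members 1 rise and 6 falls among 29, which are 26.7% and 6.67%, and 3.45% and 20.7%, beside 9.48% and 15.3% of all genes. These counts share the same 4 libraries, and the differences between the groups were not tested.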

How the data were processed

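HISAT2 was used by the authors to map reads to ARS1, the goat assembly, and HTSeq to count those with a single location, from which they computed FPKM. The deposited FPKM values of 13 libraries were used as they are, and 0 columns of values were left unused. Names were matched by symbol to a RefSeq table of the ARS1.2 assembly, without coordinates. The knockdown was fitted with limma 3.58.1 in R 4.3.3 (lmFit, eBayes with trend) on log2(FPKM + 1) over genes whose mean reached 1 FPKM, with p-values adjusted over all genes, and the steps were tested on simulated data. A p-value under 0.05 with a change of over 2-fold counts as a call, after the study's methods. Other steps and figures were run in Python 3.11.15 (matplotlib 3.10.9, numpy 2.4.6, pandas 2.3.3, scipy 1.17.1). The members and the gene lists were chosen with earlier results of these data known. Named are all members with a symbol, which the rules on highest oocyte level, lowest ratio, knockdown calls and distance from the threshold covered, and LOC names only as chosen after their values were seen. Nothing states that replicate numbers pair the injected libraries. The correlation of replicate differences was -0.15 over genes, which cannot settle whether they do. DESeq2 was the authors' test for their own calls and was not run, since no counts were used. Promoter sequence and motifs were not analysed here. 1 gene just outside the threshold is not reported here.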

Additional observations from a re-analysis of the deposited data

Results flagged for a closer look

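Members that lay below every MII library in all 3 untreated 8-cell libraries and above every MII library in both NC libraries numbered 25. The rule fixes the low untreated values for all members, so only the NC side is free, and 28.6% of all oocyte names had both NC libraries above every MII library, beside 54.3% of the members. The difference was not tested, since the tables were normalized apart. Of these, 3 have a symbol. The NC mean was 3.53 times the MII mean for *UBE2S*, 1.57 times for *HSPB11* and 1.45 times for *C8H9orf40*, where the untreated 8-cell means were 4.78%, 11.0% and 5.88% of the MII mean. The other 22 were LOC names, 14 of them pseudogenes. Injection, which the NC labels do not name, the source of the embryos and the processing of the tables cannot be told apart.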

How the results depend on the processing

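The number of members moved with nearly every choice: 78 with median-ratio rescaling, 86 with the same summed FPKM in each library, 83 at a threshold of 1/2, 30 at 1/4, 71 with an MII minimum of 2 FPKM, 27 with 10 FPKM, 187 with group means and 17 with symbols only, a choice made after seeing the data. Without 1 library it ran from 47 to 112, the highest without MII replicate 3. All 46 were kept in each looser setting. The make-up moved too: LOC names were 29 of the 46, 24 of 30 at 1/4, 50 of 112 without MII replicate 3 and 68 of 187 with group means. The share of members low in NC ran from 10.0 to 29.8% over the settings and from 13.4 to 23.9% without 1 library. For these shares all 13 libraries were rescaled together, which gave 75 members with median-ratio rescaling and 94 with the same summed FPKM. The share low in the knockdown was 25.5% with the same summed FPKM (of those 94), 3.33% at 1/4 and 9.26 to 21.7% without 1 library.

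Members that rose in the knockdown numbered 3 with a pseudocount of 5, and without 1 library 3 to 6 rose and 4 to 10 fell, where a lone library was assumed to vary like the other group. By the adjusted rule none rose or fell without the filter on low values, with median-ratio rescaling, with quantile normalization, with the replicate block, or without replicate 2 of either group (limma, where 3 to 7 rose and 6 to 8 fell by the unadjusted rule). Names kept to 4 cells that fell numbered 2 with a pseudocount of 5, 3 with the 10 highest genes left out of the total and 3 to 7 without 1 library, and names kept to 8 cells that rose numbered 286 with a pseudocount of 5 and 252 to 729 without 1 library. With the 10 highest genes left out of the total the median of all genes moved from 0.005 to 0.13 and that of the members from -0.080 to 0.059. *RPAIN* changed sign there (0.045). Without 1 library the log2 fold change ran from -0.33 to 0.17 for *RPAIN*, from -0.19 to 0.28 for *NAF1* and from -0.19 to 0.46 for *TEX30*, which all changed sign without NC replicate 2 (0.014, -0.012 and -0.0072). The cause was not tested. Of the single-gene values, 276 kept direction and call, 19 lost the call, 2 gained it and 7 changed sign.

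Nothing states that the replicate numbers pair the injected libraries, and with the replicate block 5 members rose and 8 fell by the unadjusted rule. The crossed block, added after seeing the data, gave 5 and 8, and 4 and 7 by the adjusted rule, where the calls over all 11004 genes also increased, from 227 and 651 to 688 and 1378. Depth limits the residual level of 6 LOC members, under 10 fragments in every embryo library. The planned look at length, GC content and promoter motifs was not run.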
